A study of Mus musculus with 7 samples.

Results

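The myosin heavy chains of skeletal muscle are the motor proteins of the thick filament, and 6 genes that encode them were followed through 7 libraries of mouse hindlimb tendon. They were taken by symbol: the fast chains Myh4 (IIb), Myh1 (IIx) and Myh2 (IIa), the slow chain Myh7, which is also a heart chain, and the developmental chains Myh3 (embryonic) and Myh8 (perinatal). They were 6 of 42689 genes in the tables, and all 6 passed the filter on low counts, which left 16028 features for testing.

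The study compared RNA of the Achilles tendon region in mice of C57BL/6 background, 3 weeks after a burn and a cut through the tendon (tenotomy). Injured mice received a partial-thickness burn over 30% of the body surface by contact for 18 s with metal heated to 60 °C, and the Achilles tendon of 1 hindlimb was cut in the same operation. The tenotomy group (2 libraries) is the injured left leg of such mice, the contralateral group (3 libraries) is the intact right leg of such mice, and the uninjured group (2 libraries) comes from wild-type mice with neither injury. The contralateral leg therefore belonged to burned animals. The labels give no age, do not say which legs came from the same mouse, and do not say whether each library is a separate animal, so p-values measure only the spread between these libraries. The dissected piece ran from where the tendon meets the gastrocnemius muscle to the heel bone.

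A muscle fibre is typed by the heavy chain it holds. Fibres with Myh4 contract fastest and tire soonest, those with Myh1 and Myh2 are intermediate, and those with Myh7 are slow and resist fatigue. Myh3 and Myh8 are used while muscle forms and return for a time when adult fibres regenerate. Myh3, Myh2, Myh1, Myh4 and Myh8 lie in this order on chromosome 11, and Myh7 lies beside the heart gene Myh6 on chromosome 14.

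The 6 genes have very similar coding sequences, which bears on every value below because reads that match several genes have to be divided among them. In the GENCODE M21 annotation of the mouse genome build GRCm38, Myh1 and Myh2 were identical at 90.954% of aligned coding bases, and Myh4 and Myh1 at 90.098%. Myh7 shared 77.387% with Myh4, and Myh3 shared 80.269% with Myh4. The first set of sequences shows why reads are ambiguous. The candidates were stretches of 60 coding bases that align without gaps and lie within a single exon in all 6 genes. Of these, it is the one that differs at the fewest positions among the genes on chromosome 11, the earliest being taken in a tie. It lies in the part of the messenger that encodes the rod, and differences in Myh7 were not counted in choosing it. Capitals mark bases that differ from Myh4, and the positions are chr11:67253427-67253486 (Myh4, exon 26), chr11:67215191-67215250 (Myh1, exon 27), chr11:67189592-67189651 (Myh2, exon 27), chr11:67298618-67298677 (Myh8, exon 27) and chr11:67094747-67094806 (Myh3, exon 27), all on the plus strand, and chr14:54979230-54979289 (Myh7, exon 28) on the minus strand.
Myh4: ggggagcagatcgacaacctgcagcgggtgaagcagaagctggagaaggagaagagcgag
Myh1: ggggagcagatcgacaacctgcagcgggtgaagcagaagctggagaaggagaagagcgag
Myh2: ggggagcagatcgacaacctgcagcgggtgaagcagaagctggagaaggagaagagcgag
Myh8: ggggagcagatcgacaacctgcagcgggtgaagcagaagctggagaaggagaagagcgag
Myh3: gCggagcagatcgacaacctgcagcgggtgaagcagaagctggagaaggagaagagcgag
Myh7: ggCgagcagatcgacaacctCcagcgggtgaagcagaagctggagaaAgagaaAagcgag
Myh4, Myh1, Myh2 and Myh8 were identical over all 60 bases, whereas Myh3 differed from Myh4 at 1 base and Myh7 at 4.

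The second set is the stretch of 60 coding bases, from the same candidates, that differs most among the genes. It lies in the part that encodes the motor domain and shows what lets reads be told apart. The positions are chr11:67248692-67248751 (Myh4, exon 15), chr11:67209099-67209158 (Myh1, exon 16), chr11:67181281-67181340 (Myh2, exon 16), chr11:67289773-67289832 (Myh8, exon 16), chr11:67089064-67089123 (Myh3, exon 16) and chr14:54987225-54987284 (Myh7, exon 17), with capitals as before.
Myh4: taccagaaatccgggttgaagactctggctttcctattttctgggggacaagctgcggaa
Myh1: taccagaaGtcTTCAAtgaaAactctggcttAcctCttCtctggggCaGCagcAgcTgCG
Myh2: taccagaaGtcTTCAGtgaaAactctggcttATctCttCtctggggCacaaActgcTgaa
Myh8: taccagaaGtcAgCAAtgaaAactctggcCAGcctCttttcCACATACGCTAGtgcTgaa
Myh3: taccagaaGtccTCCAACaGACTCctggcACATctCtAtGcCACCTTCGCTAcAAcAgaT
Myh7: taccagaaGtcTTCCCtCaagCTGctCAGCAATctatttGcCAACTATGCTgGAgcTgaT
Here Myh2 differed from Myh4 at 14 bases, Myh1 at 17, Myh8 at 23, Myh7 at 32 and Myh3 at 34.

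Over whole transcripts, the share of 31-base windows that also occur in another gene was 44.918% for Myh1, 40.509% for Myh2, 39.181% for Myh7, 32.489% for Myh8, 30.404% for Myh4 and 11.215% for Myh3. Most of the overlap of Myh1 was with Myh2, which held 28.111% of its windows, and most of that of Myh7 was with Myh6, which held 32.203%. Of the other chains followed here, the one sharing most with Myh7 was Myh8, with 0.753% of its windows. With 75-base windows the shared part fell to between 1.863% (Myh3) and 21.974% (Myh1). A split between Myh1 and Myh2, or between Myh8 and its neighbours, is therefore less certain than a split between the slow and the fast chains. The reads' length and the strand of counting are not given in the sources used here, and Myh1 also shared 7.586% of its windows with the antisense transcript Myhas.

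**Figure D1:**
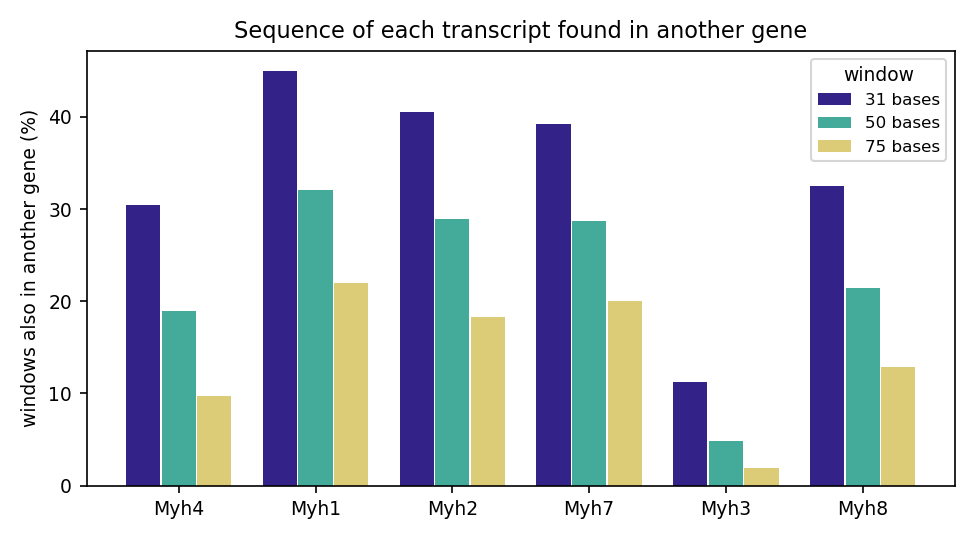
Share of each myosin heavy chain transcript found in another gene (vertical axis, percent of windows) for windows of 31, 50 and 75 bases. Myh3 has the smallest shared part at every window length and Myh1 the largest.

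The 7 libraries held between 25927171 and 36725106 estimated counts. Their 5 most counted features took 76.4069% to 81.3977% of these, so 4934057 to 8375626 counts remained for all other genes, myosin chains included. Levels between libraries are given as CPM, the count of a gene relative to the library total after TMM scaling, and levels between genes as TPM, which also allow for transcript length. The 2 libraries labelled uninjured were unlike each other. The Euclidean distance of uninjured replicate 1 over log2 CPM was 59.56 and 61.06 to the tenotomy libraries but 114 to uninjured replicate 2. Uninjured replicate 2 in turn lay 64.47 to 67.37 from the contralateral libraries. With 2 libraries, it cannot be told which is typical of uninjured tendon. Tests of the 6 genes against the uninjured group are therefore given with both and without each, and shares and ratios are given for each library. The labelled tissue was checked with marker genes: tendon markers summed to 896.3 to 1274 CPM in the contralateral libraries, 4745 and 4760 at the tenotomy site, and 4380 and 3999 in the uninjured libraries. Collagen genes Col1a1 and Col1a2 made up most of these sums, with 478.1 and 469.4 CPM in contralateral replicate 1 and 2565 and 1852 CPM in tenotomy replicate 1. Of the 9 tendon markers, 5 were called higher and 1, Chad, lower in tenotomy against contralateral. All libraries also held skeletal muscle RNA, with 0 of 8 fibre markers absent: their sum was 4186 to 5631 CPM contralaterally, 450.7 and 448.1 at the tenotomy site, and 572.2 and 4306 in uninjured replicates 1 and 2.

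Myosin heavy chain RNA was far less abundant at the tenotomy site than in the contralateral tendon. The 6 genes summed to 4691, 4890 and 5752 CPM in the contralateral libraries, 475.6 and 479.4 CPM at the tenotomy site, and 584.4 and 4039 CPM in uninjured replicates 1 and 2. The contralateral libraries and uninjured replicate 2 were high, and the other 3 libraries were low. The fall at the tenotomy site took in Myh4, Myh1, Myh2, Myh7 and Myh3, that is 5 of 6 genes by edgeR's quasi-likelihood test with an adjusted p under 0.05. Of all features tested, 15.4% were called lower and 13.6% higher in this comparison. The median log2 change of the 6 genes was -4.22, beside -0.00121 over all features. Because the tissue was measured in bulk, fewer muscle fibres and less myosin RNA per fibre cannot be told apart.

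Myh4, the IIb chain of the fastest fibres (chr11:67238029-67260446, plus strand), was the most abundant chain in every library. Its level was 2753, 2552 and 3739 CPM in the contralateral libraries, 376.8 and 381 CPM at the tenotomy site, and 439.8 and 2783 CPM in the uninjured libraries. Tenotomy and contralateral libraries did not overlap, and uninjured replicate 2 fell among the contralateral values. The log2 change at the tenotomy site against the contralateral tendon was -2.99 ± 0.73 (SE; edgeR adjusted p = 0.02329), the smallest of the 5 changes that passed.

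Myh1, the IIx chain (chr11:67200052-67224575, plus strand), stood at 475.4, 656.2 and 711.9 CPM contralaterally, at 35.82 and 36.96 CPM after tenotomy, and at 35.64 and 472.7 CPM in uninjured mice. Uninjured replicate 1 was at the tenotomy level and uninjured replicate 2 was just below the lowest contralateral library. The log2 change of Myh1 against the contralateral tendon was -4.08 ± 0.99 (SE; edgeR adjusted p = 0.02251).

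Myh2, the IIa chain of fast fibres that work aerobically (chr11:67171027-67197517, plus strand), stood at 956, 1069 and 886.9 CPM contralaterally, at 37.69 and 36.06 CPM after tenotomy, and at 67.52 and 536.5 CPM in uninjured mice. All contralateral libraries were above both uninjured libraries, which were above both tenotomy libraries. Its log2 change of -4.72 ± 0.85 (SE; edgeR adjusted p = 0.01668) was the largest among the adult chains, and the mean CPM was 26.3 times as high contralaterally as at the tenotomy site, against 7.96 times for Myh4.

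Myh7, the slow chain (chr14:54970684-54994626, minus strand), followed the order of Myh2. It was at 500.4, 607.6 and 411.3 CPM contralaterally, at 24.61 and 24.6 CPM after tenotomy, and at 40.32 and 242.7 CPM in uninjured mice. The 3 groups did not overlap. Its log2 change against the contralateral tendon was -4.36 ± 0.76 (SE; edgeR adjusted p = 0.01668). Its close relative Myh6, with which it shares most sequence, had at most 43.7 counts in a library. The 5 listed cardiac markers, Myh6 among them, summed to between 0.503 and 1.79 CPM in a library. Of these markers 1, the atrial gene Myl7, was at 0 in all libraries.

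Myh3, the embryonic chain (chr11:67078300-67102291, plus strand), was rare and fell as well. It had 147, 145 and 78 counts in the contralateral libraries, 3.1 and 5 at the tenotomy site, and 10 and 103 in the uninjured libraries, or 5.51, 4.13 and 2.41 CPM, 0.0816 and 0.167 CPM, and 0.359 and 3.54 CPM. The tenotomy libraries were lowest and did not overlap with either other group. Its log2 change against the contralateral tendon was -5.01 ± 1.07 (SE; edgeR adjusted p = 0.01747). Pooled over libraries, 370 contralateral counts against 8 at the tenotomy site gave a 32.8-fold higher level per library total (95% exact binomial interval 16.5 to 76.5, which covers counting error only).

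Myh8, the perinatal chain (chr11:67277124-67308634, plus strand), was close to the limit of detection. Its level was 0.90, 1.20 and 0.99 CPM contralaterally, 0.68 and 0.60 CPM after tenotomy, and 0.75 and 0.86 CPM in uninjured mice. The tenotomy values were lowest, and all 7 libraries lay between 0.60 and 1.20 CPM. The log2 change at the tenotomy site was -0.68 ± 0.24 (SE) and did not pass (edgeR adjusted p = 0.06467). Much of this signal lay on transcripts annotated as retaining an intron: 48.9%, 45.2% and 42.9% of the Myh8 counts contralaterally, 74.1% and 76.1% at the tenotomy site, and 85.3% and 22.7% in uninjured replicates 1 and 2. The protein-coding Myh8 transcripts held 12.2, 23.1 and 18.1 counts contralaterally, 6.48 and 4.23 at the tenotomy site, and 3.02 and 19.1 in the uninjured libraries, with the same 3 libraries low as for the other chains.

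**Figure D2:**
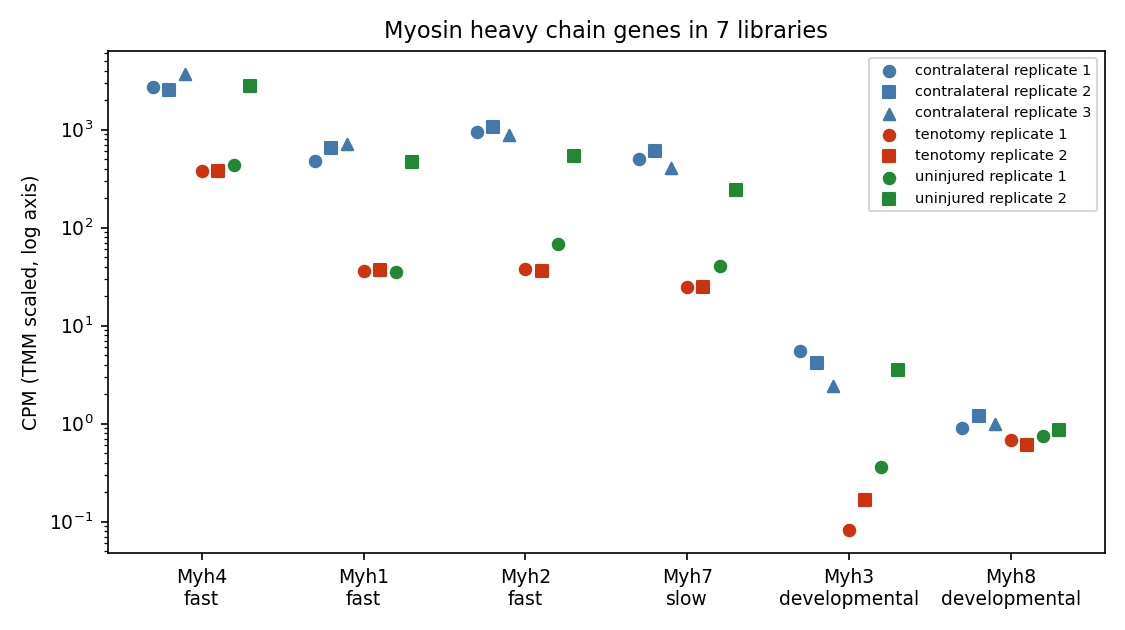
CPM of the 6 genes on a log axis, 1 point per library, coloured by group and shaped by replicate. For Myh4, Myh1, Myh2, Myh7 and Myh3, uninjured replicate 1 lies near the tenotomy libraries and uninjured replicate 2 near or below the contralateral ones, while the 7 points of Myh8 lie close together.

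All 6 genes were lower in both tenotomy libraries than in every contralateral library, a pattern that 31.8% of the tested features showed. The calls by test depended on each library. With any 1 of the contralateral or tenotomy libraries left out, 0 of the 6 genes and 0.0% of all features passed by edgeR, with adjusted p of the 5 genes between 0.05005 and 0.154, although 5 or 6 of 6 kept an unadjusted p under 0.05. The size of the change moved little: the log2 change of Myh4 stayed between -3.10 and -2.81 and that of Myh2 between -4.78 and -4.65. Without uninjured replicate 1 or uninjured replicate 2, which enter this comparison through the shared estimate of spread and the filter on low counts, all 6 passed, as did 22.0% and 22.3% of features in that direction. DESeq2 called 5 genes (12.9% of features) and limma-voom called 4 (14.6% of features), Myh3 missing with an adjusted p of 0.104.

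The tenotomy and contralateral libraries can also be compared within the series of numbers used in the sample titles, which no label calls a batch. Tenotomy replicate 1, in the same series as the contralateral libraries, differed from their mean log2 CPM by -2.98 for Myh4, -4.08 for Myh1, -4.68 for Myh2, -4.34 for Myh7 and -4.73 for Myh3. Tenotomy replicate 2, in the same series as uninjured replicate 1, differed from that library by -0.21 for Myh4, 0.05 for Myh1, -0.90 for Myh2, -0.71 for Myh7 and -0.88 for Myh3. The first set of differences was as large as in the pooled comparison, and the second set was small for Myh4 and Myh1, uninjured replicate 1 being low itself.

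Against uninjured mice, the tenotomy site was compared with 2 libraries that differed 6.33-fold in Myh4, 13.3-fold in Myh1, 7.95-fold in Myh2, 6.02-fold in Myh7, 9.86-fold in Myh3 and 1.14-fold in Myh8. Log2 changes were -2.09 ± 0.74 for Myh4, -2.80 ± 0.96 for Myh1, -3.03 ± 0.81 for Myh2, -2.52 ± 0.71 for Myh7 and -3.98 ± 1.18 for Myh3 (SE; edgeR adjusted p = 0.4497 for each), and Myh8 gave -0.33 ± 0.27 (edgeR adjusted p = 0.6527). By edgeR 0 of 6 genes passed, as did 0.0% of all features, although 5 of the 6 had an unadjusted p under 0.05. Limma-voom called 0 and DESeq2 called 3, namely Myh2, Myh7 and Myh4, against 0.842% of features called lower and 0.0312% called higher by DESeq2. Myh3 (DESeq2 unadjusted p = 2.92e-05) and Myh8 were given no adjusted p by DESeq2 here and so could not be called. All genes but Myh1 were lower in both tenotomy libraries than in both uninjured ones, as were 20.4% of features.

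Without uninjured replicate 1 the same 5 genes that fell against the contralateral tendon also fell against the single uninjured library, whose spread was taken to be that of the other groups. The log2 changes were then -2.87 for Myh4, -3.70 for Myh1, -3.86 for Myh2, -3.30 for Myh7 and -4.84 for Myh3, with edgeR adjusted p between 8.566e-08 and 9.99e-05, and 13.7% of features were called lower. Without uninjured replicate 2, 0 of 6 genes passed, 2 had an unadjusted p under 0.05, and the log2 changes of Myh4 and Myh1 were -0.21 and 0.03.

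Between the contralateral tendon and uninjured mice, which the burn and the other leg's tenotomy separate, 0 of 6 genes passed by edgeR and 0.0% of features were called. Log2 differences, contralateral minus uninjured, were 0.90 ± 0.66 for Myh4, 1.27 ± 0.85 for Myh1, 1.68 ± 0.73 for Myh2, 1.84 ± 0.66 for Myh7, 1.02 ± 0.71 for Myh3 and 0.35 ± 0.23 for Myh8 (SE; edgeR adjusted p between 0.225 and 0.4578). Only Myh7 had an unadjusted p under 0.05 by edgeR, limma-voom called 0, and DESeq2 called Myh7 alone (adjusted p = 0.04029, with 0.512% of features called higher). DESeq2 gave no adjusted p to Myh3 and Myh8 in this comparison. Myh1, Myh2, Myh7 and Myh8 were higher in all 3 contralateral libraries than in both uninjured ones, as were 18.9% of features. These 3 comparisons share libraries, so their values for a gene are not independent.

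Against the uninjured library that resembled the contralateral tendon, Myh2 and Myh7 passed. Without uninjured replicate 1, Myh2 was higher contralaterally by 0.85 (edgeR adjusted p = 0.03571) and Myh7 by 1.06 (edgeR adjusted p = 0.04294) on the log2 scale, while 0.306% of features were called higher. Myh1, Myh3 and Myh4 differed by 0.38, 0.16 and 0.11 and did not pass. With the tenotomy libraries also left out of that fit, a choice made after seeing the data, Myh2 and Myh7 differed by 0.84 and 1.04 and did not pass (edgeR adjusted p = 0.1484 and 0.1259). Without uninjured replicate 2 the differences from uninjured replicate 1 were 2.78 for Myh4, 4.11 for Myh1, 3.85 for Myh2, 3.65 for Myh7 and 3.45 for Myh3, and these 5 passed, as did 16.9% of features in that direction.

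**Figure D3:**
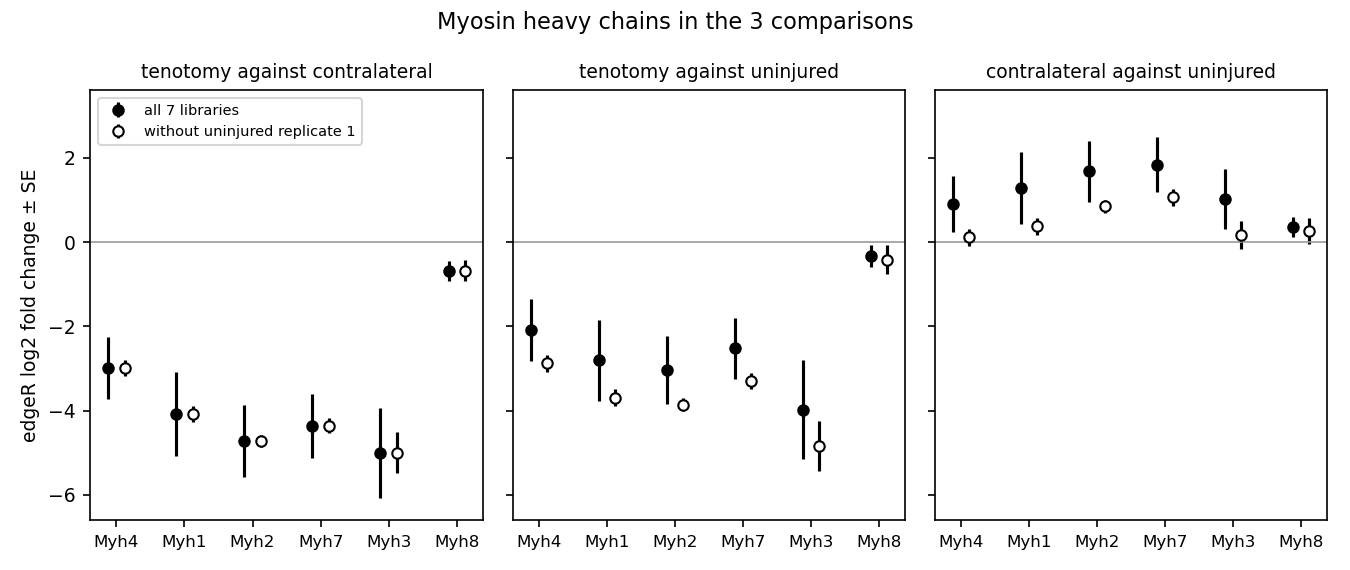
Log2 fold changes of the 6 genes with their SE from edgeR in the 3 comparisons, with all 7 libraries (filled) and without uninjured replicate 1 (open). In the tenotomy against contralateral panel the open and filled points nearly coincide, and Myh4 and Myh8 lie nearest 0.

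Per length, Myh4 led in both groups, and the small difference between Myh1 and Myh2 at the tenotomy site was not tested. In the contralateral tendon Myh4 led with 72.2 ± 5.21 TPM (SD, n = 3), followed by Myh2 with 24 ± 4.93, Myh1 with 16 ± 2.42 and Myh7 with 12.8 ± 3.76. Across libraries the ranges of Myh2 and Myh1 just met and those of Myh1 and Myh7 overlapped. Within each contralateral library the order was the same, and Myh1 and Myh7 were closest in replicate 1, at 13.78 and 13.32 TPM. At the tenotomy site Myh4 held 9 ± 0.785 TPM (SD, n = 2), Myh1 0.986 ± 0.11, Myh2 0.887 ± 0.0446 and Myh7 0.6 ± 0.024. The ranges of Myh1 and Myh2 overlapped, with Myh1 above Myh2 in each library (0.908 against 0.855 and 1.06 against 0.918 TPM). So small a gap also depends on how reads shared by the 2 genes were divided. Uninjured replicates 1 and 2 held 11.8 and 68.3 TPM of Myh4, 1.9 and 13.3 TPM of Myh2, 1.15 and 12.5 TPM of Myh1, and 1.09 and 6.21 TPM of Myh7. The developmental chains came last, with means of at most 0.101 TPM for Myh3 and 0.0285 TPM for Myh8.

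The myosin RNA at the tenotomy site held a larger share of Myh4 than that of the contralateral tendon. Myh4 made up 58.7%, 52.2% and 65% of the counts of the 6 genes in the contralateral libraries, 79.2% and 79.5% at the tenotomy site, and 75.3% and 68.9% in the uninjured libraries. Both uninjured libraries, including the one whose total resembled the contralateral tendon, lay between the other groups. The difference between tenotomy and contralateral means was 20.7 percentage points (exact two-sided permutation test, p = 0.1, the smallest that 3 against 2 libraries allow; adjusted p = 0.382 over 42 tests of shares and ratios).

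The share of Myh2 moved the other way. It was 20.4%, 21.9% and 15.4% contralaterally, 7.92% and 7.52% after tenotomy, and 11.6% and 13.3% in uninjured mice, again with no overlap between the 3 groups. The difference of tenotomy from contralateral was -11.5 percentage points (exact permutation p = 0.1; adjusted p = 0.382). Myh1 made up 10.1%, 13.4% and 12.4% contralaterally, 7.53% and 7.71% after tenotomy, and 6.10% and 11.7% in uninjured mice.

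Taken as classes, the fast chains made up 89.8% ± 2.72 of the counts contralaterally (SD, n = 3), 94.7% ± 0.0302 at the tenotomy site (SD, n = 2) and 93.4% ± 0.687 in uninjured mice (SD, n = 2). The slow chain Myh7 made up 10.7%, 12.4% and 7.15% contralaterally, 5.17% and 5.13% after tenotomy, and 6.90% and 6.01% in uninjured mice. The slow share was higher in every contralateral library than in any other, with 7.15% and 6.90% as the nearest values. Its difference between tenotomy and contralateral was -4.93 percentage points (exact permutation p = 0.2; adjusted p = 0.382). Developmental chains took at most 0.188% of the counts in any library. Their share at the tenotomy site, 0.161% and 0.158%, came mostly from Myh8. With only the most counted protein-coding transcript of each gene, a choice made after seeing the data, the developmental share was 0.130%, 0.102% and 0.0534% contralaterally and 0.0565% and 0.0305% at the tenotomy site, so the means changed order and the groups overlapped.

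**Figure D4:**
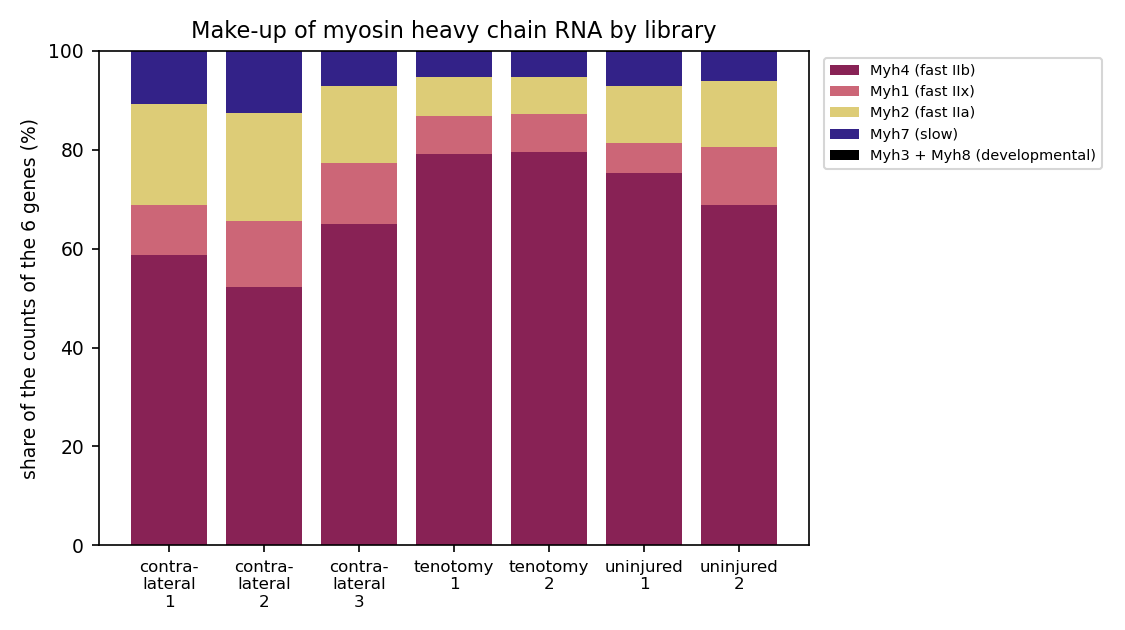
Make-up of the myosin heavy chain counts in each library (vertical axis, percent of the counts of the 6 genes). Myh4 takes 79.2% and 79.5% in the tenotomy libraries and 52.2% to 65% in the contralateral ones, and the developmental chains are too rare to be seen.

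The ratio of Myh4 to Myh2 held the same pattern without any library scaling. Its log2 value was 1.53, 1.26 and 2.08 contralaterally, 3.32 and 3.40 at the tenotomy site, and 2.70 and 2.38 in uninjured mice. The 3 groups did not overlap, and the 2 uninjured libraries, which differed 7.95-fold in Myh2, differed little in this ratio. The mean difference was 1.74 between tenotomy and contralateral (exact permutation p = 0.1; adjusted p = 0.382), 0.82 between tenotomy and uninjured (exact permutation p = 0.333, the smallest that 2 against 2 allow) and -0.92 between contralateral and uninjured (exact permutation p = 0.2). Without uninjured replicate 1 the last pair of differences became 0.99 and -0.76. The log2 ratio of Myh8 to Myh3 was -2.57, -1.76 and -1.27 contralaterally, 2.66 and 1.64 at the tenotomy site, and 0.97 and -2.02 in uninjured mice, and it rests on few counts.

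Set against the sum of 6 other genes of muscle fibres (Ckm, Acta1, Tnnt3, Tnni2, Atp2a1 and Actn3), the summed fast chains hardly moved. The log2 ratio of Myh1, Myh2 and Myh4 together to this sum was 0.15, 0.02 and 0.09 contralaterally, 0.18 and 0.18 at the tenotomy site, and 0.09 and -0.04 in uninjured mice. All 7 values lay between -0.04 and 0.18, while the summed fast chains themselves ranged from 450.3 to 5338 CPM. The sum mixes genes that changed unequally in tenotomy against contralateral. Acta1, the most counted of them in the contralateral libraries, had a log2 change of -4.19, and the others lay between -3.45 (Tnni2) and -2.52 (Actn3). Acta1 held 34768.9 counts in contralateral replicate 1 and 3004 in tenotomy replicate 1. The ratio without Acta1 was not taken, so its flatness holds for this sum only. Myh2 alone, against the sum of the 6 genes, was at -1.98, -1.98 and -2.50 contralaterally, -3.40 and -3.47 after tenotomy, and -2.92 and -2.86 in uninjured mice. Myh4 alone was at -0.45, -0.72 and -0.42, then -0.08 and -0.07, then -0.22 and -0.49. Myh7 against the slow-fibre genes Tnnt1, Tnni1 and Tnnc1 was at 1.73, 1.70 and 1.53 contralaterally, 1.32 and 1.30 after tenotomy, and 1.25 and 1.75 in uninjured mice.

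**Figure D5:**
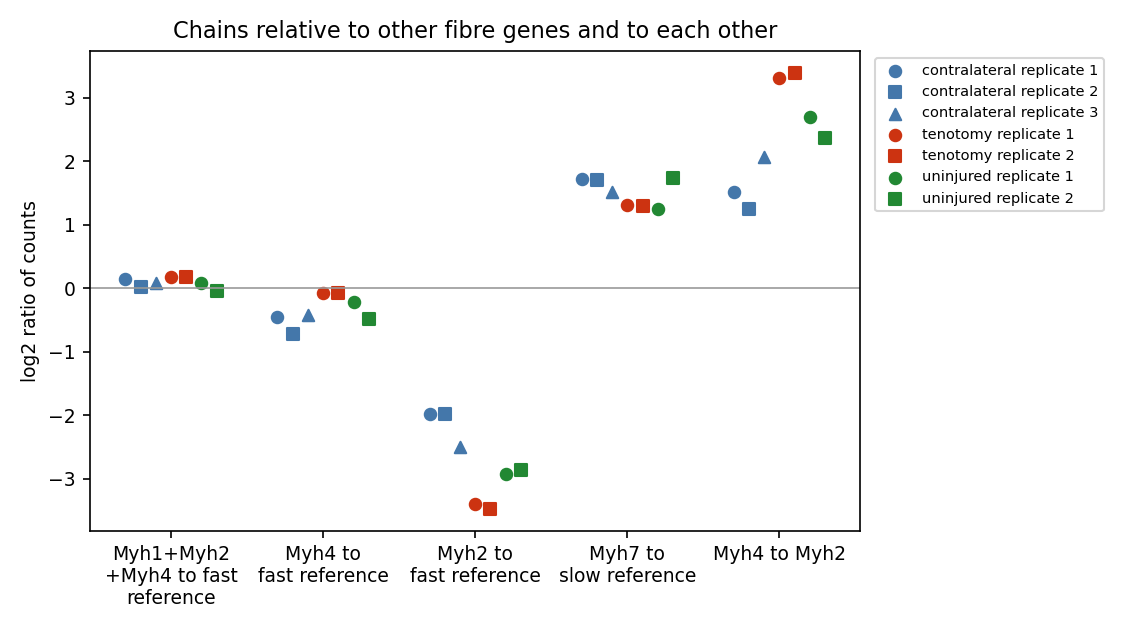
Log2 count ratios, 1 point per library: fast chains, Myh4 and Myh2 to the sum of 6 other muscle fibre genes (labelled fast reference), Myh7 to 3 slow-fibre genes, and Myh4 to Myh2. The summed fast chains stay near 0 in all 7 libraries, whereas Myh2 to the 6 genes and Myh4 to Myh2 separate the 3 groups.

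The markers of muscle fibres moved with the chains. Between tenotomy and contralateral, 8 of 8 skeletal fibre markers fell (median log2 change -3.27) and 5 of 5 slow-fibre markers fell (median -4.08), beside a median of -0.00121 over all features. The summed slow-fibre markers were at 336.8 to 423.9 CPM contralaterally, 19.64 and 18.93 CPM after tenotomy, and 32.48 and 193 CPM in uninjured mice. Markers of other cell types moved too: macrophage and leukocyte markers rose in 7 of 8 (summed CPM 20.16 to 26.27 against 96.85 and 99.79), cartilage markers rose in 4 of 5 (22.23 to 43.36 against 271.3 and 276.3), and smooth muscle markers fell in 4 of 4 (97.29 to 127.5 against 37.91 and 36.76). In such counts, here and below, rose and fell mean an edgeR adjusted p under 0.05. Log2 changes were above 0 in all 8 macrophage and leukocyte markers and in all 5 cartilage markers. Uninjured replicates 1 and 2 held 102.9 and 25.88 CPM of the macrophage and leukocyte markers, 112.5 and 30.18 CPM of the cartilage markers, and 47.07 and 71.47 CPM of the smooth muscle markers. Uninjured replicate 1, low in the chains, was thus at the tenotomy level for macrophage and leukocyte markers and between the groups for cartilage markers. Of the erythroid markers 2 of 5 rose, with log2 changes above 0 in all 5, and of 5 cardiac markers 2 were tested and 1, Myh6, fell. The part of these cell types in the myosin changes was not tested.

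RNAs of proteins that build and anchor the thick filament were mostly lower too. Of 22 listed partners and chaperones, 21 were tested, 18 fell and 1 rose in tenotomy against contralateral, with a median log2 change of -3.05. The largest falls were those of Myom3, an M-band protein, at -4.43, Mybpc1, the slow myosin-binding protein C, at -4.25, and Hspb7, a small heat shock protein of muscle, at -4.10. Mybpc2, the fast form, fell by 2.71, less than Mybpc1, and the difference between them was not tested. The chaperone Unc45b changed by -2.35, the methyltransferase Smyd1, which acts in myosin assembly, by -3.21, and Trim63, a ubiquitin ligase that marks myosin for breakdown, by -2.08. Mybph, myosin-binding protein H, rose: it was at 1.24, 0.911 and 0.897 CPM contralaterally, 2.99 and 2.80 at the tenotomy site, and 3.95 and 5.23 in uninjured mice. Its change was 1.52 ± 0.21 (SE; edgeR adjusted p = 0.01668), and both uninjured libraries were above all others.

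Among 21 listed regulators of fibre type, all tested, 15 fell and 2 rose (median log2 change -1.41), and 19 had a log2 change below 0. The largest falls were those of Vgll2, a cofactor of muscle transcription, at -4.23, and of the nuclear receptors Esrrb and Esrrg at -4.03 and -3.71. Ppargc1a, which drives oxidative genes, fell by 2.56, Sox6, which represses slow genes, by 1.81, and Tbx15 by 1.20. The calcineurin-dependent factors Nfatc4 and Nfatc1 rose by 1.59 and 0.62. Prox1 changed by -0.29 and did not pass (edgeR adjusted p = 0.2134).

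Genes of muscle stem cells and fusion were mostly scarce. Of 14 listed, 10 were tested, 4 fell and 1 rose (median log2 change -1.59), and 9 had a log2 change below 0. Cdh15 fell by 3.67, Des by 3.19 and Myf6 by 2.17, and the adhesion molecule Ncam1 rose by 0.67. Pax7, the stem cell factor, and Myog, the factor of early differentiation, had log2 changes of -2.52 and -1.65 that did not pass (edgeR adjusted p = 0.07584 and 0.07556), from at most 22 and 12 counts in a library. Myod1 was at -1.09 (edgeR adjusted p = 0.1845), and Mymk, the fusion protein, had at most 6 counts and was not tested. Counts this low limit what could be detected for these genes.

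Of 8 further myosin heavy chain genes, 7 were tested, 5 fell and 1 rose. The striated chains Myh7b, Myh13 and Myh6 fell by 3.33, 3.66 and 2.08, although Myh13 and Myh6 had at most 30 and 43.7 counts in a library and share sequence with the skeletal chains. Myh11, the smooth muscle chain, changed by -2.24 and Myh14, a nonmuscle chain, by -2.86. Myh9, the main nonmuscle chain, rose by 0.85 ± 0.22 (SE; edgeR adjusted p = 0.02878), from 43.85, 49.26 and 45.4 CPM to 82.38 and 84.06 CPM. Myh10, another nonmuscle chain, changed by -0.28 (edgeR adjusted p = 0.1862). Myh15 was not tested.

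For Myh4, Myh2, Myh7, Myh3 and Myh8, the genes with the most similar pattern were found as those with the smallest root mean square difference of centred log2 CPM over the 7 libraries, among 2015 genes with a mean log2 CPM of at least 3. For Myh4 these were Atp2a1 (0.097), Myom2 (0.0979) and Clic5 (0.101). For Myh2 they were the slow light chains Myl2 (0.0948) and Myl3 (0.133), followed by Mybpc1 (0.204). For Myh7 they were Myl3 (0.0964), Mybpc1 (0.16) and Hspb7 (0.176). The nearest gene to Myh3 was Flnc, at 0.41, a looser match, and the pattern of Myh8 was nearest to those of Srp54b (0.0748) and Ankrd28 (0.0794), which are not muscle genes. The search was not run for Myh1. The libraries share their depth and their muscle content in this measure.

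The promoters of the genes were compared because Myh4, Myh1 and Myh2 moved together. In the 250 bases before each start in RefSeq (GRCm38.p6), the longest run of bases shared by Myh1, Myh2, Myh4 and Myh8 was TTCTAATTATATCC, 14 bases long. It was sought on both strands, was chosen because these genes share it, and occurs in 4 of 32536 promoters of this length (0.0123%), those of these 4 genes. It lies 160, 125, 158 and 54 bases before the start of Myh1, Myh2, Myh4 and Myh8. The stretches around it are shown with the run in capitals, at chr11:67199898-67199999 (Myh1), chr11:67170858-67170959 (Myh2), chr11:67237610-67237711 (Myh4) and chr11:67277026-67277123 (Myh8), all on the plus strand.
Myh1: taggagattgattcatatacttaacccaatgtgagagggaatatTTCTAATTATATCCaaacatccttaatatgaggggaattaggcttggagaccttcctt
Myh2: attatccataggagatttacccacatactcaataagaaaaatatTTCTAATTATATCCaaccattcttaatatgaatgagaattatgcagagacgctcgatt
Myh4: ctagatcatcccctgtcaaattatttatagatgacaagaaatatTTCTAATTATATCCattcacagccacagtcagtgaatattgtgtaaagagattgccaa
Myh8: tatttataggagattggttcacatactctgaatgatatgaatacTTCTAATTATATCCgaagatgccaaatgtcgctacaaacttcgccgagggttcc
The run was not found in the windows of Myh7 and Myh3, which were also called lower in tenotomy against contralateral, whereas Myh8, which holds it, was not called. The E-box CANNTG, the letters bound by myogenic factors, matched 2 times in Myh4, 1 time each in Myh7, Myh3 and Myh8, and 0 times in Myh1 and Myh2, and 66.1913% of promoters hold it. The M-CAT letters CATTCC matched 1 time each in Myh4, Myh1 and Myh7 and in 12.5738% of promoters. These matches are descriptions of the sequence only.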

How the data were processed

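Total RNA of 7 mouse hindlimb tendon libraries was sequenced after Trizol extraction and TruSeq preparation, per the labels' protocols. The submitters' processing notes name FastQC 0.11.4 and kallisto and list the build GRCh38, although the transcript IDs in the files are mouse IDs. The annotation release, read length, strand and filters are not given in the sources used here. Per the file headers, the authors deposited an estimated count and a TPM for each of 103639 transcripts, with transcript lengths. TPM deposited by the authors are abundances scaled by effective length to a fixed total, and the estimated counts are not normalized.

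Transcripts were matched without version to GENCODE M21 (101510 matched, 57625 with the same version, 2129 unmatched and kept as single features), and estimated counts were summed per gene and rounded. Kallisto divides reads shared by several transcripts by a model, so counts of near-identical chains depend on that division. Libraries were grouped by their condition label, and replicate numbers follow accession order. Features were filtered with filterByExpr (minimum count 10) and scaled by TMM. They were tested with the quasi-likelihood test of edgeR 4.0.16 in R 4.3.3, in 1 fit of 7 libraries with 3 group means, adjusted by Benjamini-Hochberg over 16028 features with a threshold of 0.05. SE is the log2 change divided by the square root of F. Shares and ratios (1 count added) were tested by exact permutation over libraries. Coding sequences were aligned with MAFFT 7.526. Alternatives used DESeq2 1.42.0, limma 3.58.1 (voom), other scalings and filters, title-number series as covariate, length-scaled TPM, single transcripts, and each library left out.

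The members, gene lists and tests were chosen with earlier results of these data known. Named were the 6 chains, 8 other heavy chain genes, a few listed partners and regulators whatever their values, and in each list the 3 largest rises and falls past the threshold. A gene that this rule names is not reported here. The scripts were tested on simulated data. Intervals on counts cover counting error only, and PCR copies are not told apart.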

Additional observations from a re-analysis of the deposited data

How the results depend on the processing

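With 2 or 3 libraries per group, calls depended on single libraries while most directions did not. No paired analysis was possible because the labels do not say which legs came from the same mouse. When each library was left out in turn, the number of chains called changed in each comparison, and the share of all features called changed with it. DESeq2 called 3 chains lower in tenotomy against uninjured (0.842% of features) and 1 higher in contralateral against uninjured (0.512% of features). Only the tenotomy and uninjured groups were also fitted without uninjured replicate 1, a choice made after seeing the data. There 5 chains had log2 changes in tenotomy against uninjured between -4.849 (Myh3) and -2.885 (Myh4), and Myh8 had -0.4258. The uninjured group was replicate 2 alone there, so only effect sizes are given. A fit with a term for the series of title numbers called 4 chains higher in contralateral against uninjured, beside 8.39% of all features. The uninjured group rests on replicate 1 alone in this fit. In it the log2 change of Myh1 in tenotomy against uninjured was 0.0524 in place of -2.80, and it was -3.70 to 0.0321 when leaving out each library. Upper quartile scaling moved the median of all features in tenotomy against contralateral to 0.11 and changed no call among the 6 chains there.

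Counting only the longest protein-coding transcript reversed the contralateral minus uninjured difference of the fast share to 0.0451 points and of the slow share to -0.051, by its construction, since the longest Myh7 transcript holds few of its counts. The developmental share then differed by -0.0604 points (tenotomy minus contralateral), -0.0546 (tenotomy minus uninjured) and 0.00587 (contralateral minus uninjured). With the most counted protein-coding transcript, chosen after seeing the data, these were -0.0515, -0.0509 and 0.000627, a choice that drops the retained-intron counts of Myh8. Leaving out each library in turn gave ranges that crossed 0 for the developmental share in tenotomy minus uninjured (-0.0285 to 0.0506 points) and its log2 ratio to the fast chains (-0.25 to 0.58). The same held in contralateral minus uninjured for Myh1 to Myh2 (-0.49 to 0.24) and Myh8 to Myh3 (-2.84 to 0.15).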

Other observations

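The myosin gene cluster on chromosome 11 also holds non-coding transcripts on the minus strand, which were looked at after the values of the chains were seen. Myhas, which overlaps the end of Myh1 and runs towards Myh4, was at 3.26, 3.90 and 4.39 CPM in the contralateral libraries, 0.626 and 0.70 CPM at the tenotomy site, and 0.647 and 5.13 CPM in uninjured replicates 1 and 2. Its log2 change in tenotomy against contralateral was -2.54 ± 0.74 (SE; edgeR adjusted p = 0.03854). 9430073C21Rik, which overlaps the end of Myh2, changed by -3.26 ± 0.43 (SE; edgeR adjusted p = 0.01668), and 2310065F04Rik, between Myh3 and Myh2, by -2.34 ± 0.62 (SE; edgeR adjusted p = 0.02883). Without strand, reads of these transcripts and of the chains they overlap or resemble cannot be told apart.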
